A study of Mus musculus with 401 samples.

Results

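Genes of the integrated stress response and of the response to stress in the endoplasmic reticulum (ER) were examined in mouse oocytes and in the cumulus cells around them. The 10 members were Chac1, Ddit3, Atf4, Trib3, Asns, Atf5, Sesn2, Ddit4, Hspa5 and Xbp1, found by Ensembl identifier among the 43633 genes of the count tables, and all 10 passed the filter on low counts in each comparison. They were chosen by their values in cumulus cells of mice with and without hyperovulation, so that contrast is described here, with no p-value. Tests are given for age, caloric restriction and oocytes, and the 2mo cumulus libraries, against which later ages are set, also entered the choice of members. The rule that chose them calls Chac1 a gene that rises with hyperovulation, whereas in these data Chac1 was lower with hyperovulation and higher without it.

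Female B6D2F1 mice gave oocyte-cumulus complexes of fully grown follicles, and each complex was split into a single oocyte and a pool of its cumulus cells, which were sequenced separately as total RNA. In the second set of 255 libraries, mice fed ad libitum were hyperovulated at 2, 4, 9 or 14 months (2mo, 4mo, 9mo and 14mo), and further mice of 2 months were not (2moNoH). In the first set of 146 libraries, hyperovulated mice were Young (2 months), Middle (9 months) or Old (14 months) on ad libitum food, or had been placed on caloric restriction as adults (CR, 9 months). Hyperovulation was brought about with eCG or with a HyperOva serum, and which agent a mouse received is not given per sample. Several complexes came from each mouse, so p-values from fits over libraries are too small, and beside each call stands the adjusted p of a fit to counts summed per mouse label. The label Old1_2 joins 2 mice.

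Levels are given as CPM, the counts of a gene scaled to the total count of its library, or as RPKM, which also divides by the length of the gene, where genes are compared with each other. Cumulus libraries of the 2mo and 2moNoH groups held 510029 to 1147286 counts. A count of 0 allows up to 3 counts, or 2.66 to 4.8 CPM in cumulus libraries without hyperovulation. These limits cover counting error only, since the reads carry no molecular identifiers. One complex of the label Middle3 stood apart and was left out of the results, because the library labelled as its oocyte had a correlation of 0.744 with the median oocyte library and of 0.937 with the median cumulus library.

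The integrated stress response is set off when kinases that sense uncharged tRNA, unfolded ER protein, lack of heme or double-stranded RNA phosphorylate the translation factor eIF2. General translation then falls while the mRNA of the transcription factor ATF4 is translated more, so Atf4 transcript is not a measure of ATF4 protein. ATF4 raises genes of amino acid synthesis, transport and charging onto tRNA, and the factors ATF5 and CHOP (Ddit3). The ER branches of the unfolded protein response add the factors XBP1 and ATF6, which raise ER chaperones such as BiP (Hspa5). Cumulus cells supply the oocyte with metabolites through gap junctions and secrete an extracellular matrix when they expand before ovulation.

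Chac1 (ENSMUSG00000027313), whose enzyme degrades glutathione, lies on chromosome 2 of GRCm38 from 119351229 to 119354381. Trib3 (ENSMUSG00000032715), a pseudokinase that dampens ATF4 and AKT signalling, lies on chromosome 2 from 152337422 to 152344032. Asns (ENSMUSG00000029752), asparagine synthetase, lies on chromosome 6 from 7675169 to 7693254. Hspa5 (ENSMUSG00000026864), the main ER chaperone, lies on chromosome 2 from 34771970 to 34777547. The other members were the transcription factors Atf4 (ENSMUSG00000042406), Ddit3 (ENSMUSG00000025408), Atf5 (ENSMUSG00000038539) and Xbp1 (ENSMUSG00000020484), and Sesn2 (ENSMUSG00000028893) and Ddit4 (ENSMUSG00000020108), both of which restrain mTORC1. Ddit3 overlaps Mars and Gm4189, Atf5 overlaps Nup62 and Il4i1, and Sesn2 overlaps Gm12981. The reads carry no strand, so reads of Ddit3 and Atf5 cannot be told apart from those of their neighbours on the opposite strand. Gm12981 lies on the strand of Sesn2, of which 0% of the counts were not whole. Of the nonzero counts in the second set, 52.2% of Ddit3 and 53.1% of Atf5 were not whole.

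The RefSeq windows of 300 bases around the gene starts (250 bases before and 50 from the start on, GRCm38.p6) were searched on both strands. A CARE is the element TGATGNAA that C/EBP and ATF4 dimers are known to bind, an ERSE is CCAAT and CCACG with a spacer of 9 bases, and TGACGTG belongs to the element of XBP1 and ATF6. Windows of all 10 members were present. A CARE match stood in those of Chac1, Trib3 and Asns, and in 3.97% of 32851 windows of all genes. An ERSE match stood in that of Hspa5 and in 0.119% of all windows. TGACGTG was found for Hspa5 as well, apart from the ERSE, and in 2.01% of all windows. The windows with a CARE or ERSE match are printed 5′ to 3′ on the strand of the gene, with these matches in capitals, because they show the elements by which such genes are usually grouped. They are those of Chac1 (chr2:119350992-119351291, plus strand), Trib3 (chr2:152344011-152344310, minus strand), Asns (chr6:7693160-7693459, minus strand) and Hspa5 (chr2:34771840-34772139, plus strand).
Chac1: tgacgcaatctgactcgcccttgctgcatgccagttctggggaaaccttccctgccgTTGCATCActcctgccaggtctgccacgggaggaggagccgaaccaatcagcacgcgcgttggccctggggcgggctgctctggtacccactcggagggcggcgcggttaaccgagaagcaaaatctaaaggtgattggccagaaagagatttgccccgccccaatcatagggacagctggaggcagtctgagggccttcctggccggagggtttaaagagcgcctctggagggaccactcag
Trib3: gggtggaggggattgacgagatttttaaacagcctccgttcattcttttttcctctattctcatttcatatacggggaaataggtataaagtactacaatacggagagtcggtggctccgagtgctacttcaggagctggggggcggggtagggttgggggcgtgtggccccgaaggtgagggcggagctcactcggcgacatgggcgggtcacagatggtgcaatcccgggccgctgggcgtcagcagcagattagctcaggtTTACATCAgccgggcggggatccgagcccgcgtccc
Asns: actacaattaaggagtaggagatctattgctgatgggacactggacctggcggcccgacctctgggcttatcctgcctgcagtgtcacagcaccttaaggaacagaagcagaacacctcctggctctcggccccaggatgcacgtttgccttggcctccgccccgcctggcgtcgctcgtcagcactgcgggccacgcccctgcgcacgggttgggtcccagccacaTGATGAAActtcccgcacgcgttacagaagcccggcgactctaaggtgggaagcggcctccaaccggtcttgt
Hspa5: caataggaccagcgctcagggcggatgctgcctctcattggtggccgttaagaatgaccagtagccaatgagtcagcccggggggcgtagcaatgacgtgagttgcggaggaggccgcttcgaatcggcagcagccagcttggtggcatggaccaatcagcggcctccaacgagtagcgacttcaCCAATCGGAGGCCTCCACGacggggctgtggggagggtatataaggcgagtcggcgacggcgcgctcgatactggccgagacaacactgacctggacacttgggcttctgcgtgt
The match lay from base -193 to base -186 in Chac1 and from 14 to 21 in Trib3, both read on the opposite strand, from -23 to -16 in Asns and from -65 to -47 in Hspa5, where 0 is the first base of the transcript. These are matches of letters, and no binding was measured.

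Chac1, Trib3, Asns and Sesn2 had higher mean levels in cumulus cells of mice without hyperovulation, and in each of them 4 of these 8 mice lay above all 5 2mo labels. Chac1 ranged from 0 to 115 CPM without hyperovulation (median 5.47, mean 20.1 ± 28.5, SD, n = 32 libraries) and from 0 to 6.95 CPM in 2mo cumulus cells (median 0, mean 0.954 ± 1.86, n = 24). In the order of the labels 2moNoH6 to 2moNoH13, the mean Chac1 level of the 4 libraries of a mouse was 0, 0.624, 19.5, 41.6, 0, 0.27, 60.8 and 37.9 CPM. Each of the 4 libraries of 2moNoH8, 2moNoH9, 2moNoH12 and 2moNoH13 exceeded 3 counts of Chac1, with a lowest value of 9.61 CPM. None of the 16 libraries of 2moNoH6, 2moNoH7, 2moNoH10 and 2moNoH11 did, with a highest value of 1.33 CPM. The libraries thus divided by mouse, without overlap. The last digits of the complex labels divided them in the same way. Labels that end as B1A05 or B2A01 do belonged to the low mice, and those that end as B1A06 or B2A02 do to the high ones. What these digits stand for is not given, so the mouse and the digits cannot be told apart. In the 5 2mo labels the means ran from 0 to 2.89 CPM, and in all 22 hyperovulated labels of the second set from 0 to 3.94 CPM. A library exceeded 3 counts in 2 of 24 at 2 months, 1 of 40 at 4 months, 2 of 16 at 9 months and 2 of 16 at 14 months. The mouse accounted for 93.7% of the sum of squares of Chac1 on the log2(CPM + 1) scale without hyperovulation, 38.4% at 2mo and 25% at 4mo.

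**Figure D1:**
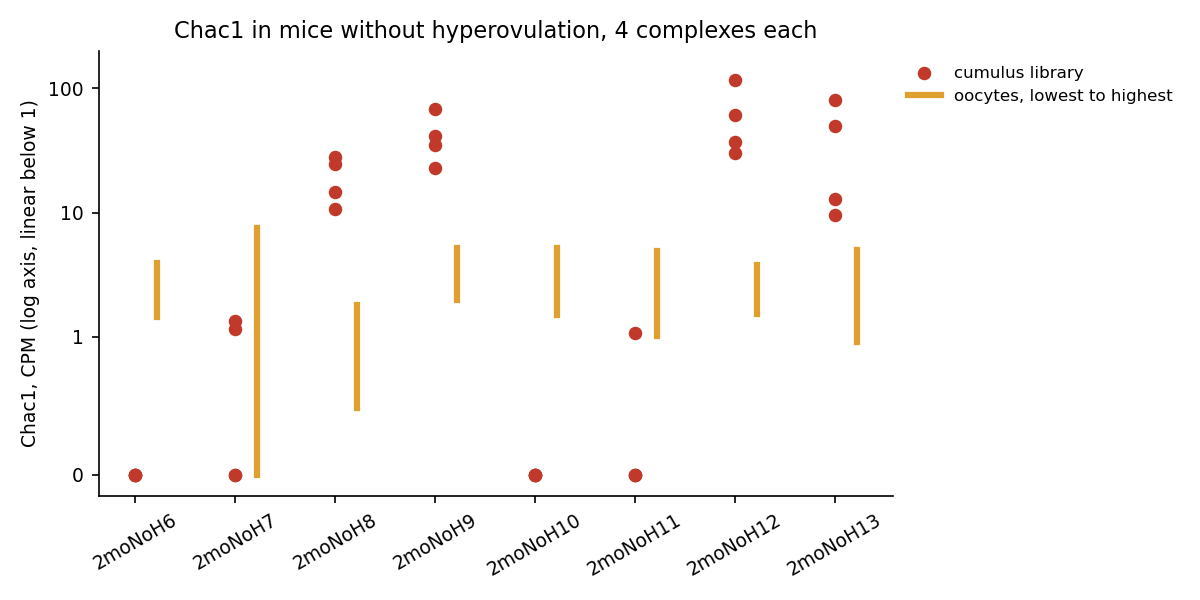
Chac1 level (CPM) in the mice without hyperovulation, on an axis that is logarithmic above 1 and linear below it. Points are the 4 cumulus libraries of a mouse and bars run from its lowest to its highest oocyte. The cumulus libraries of 2moNoH8, 2moNoH9, 2moNoH12 and 2moNoH13 lie at 9.61 CPM or more and those of the other 4 mice at 1.33 CPM or less, while the mean oocyte levels of the 8 mice run from 1.31 to 4.24 CPM.

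Trib3, Asns and Sesn2 were high in the mice that were high in Chac1. In the order 2moNoH6 to 2moNoH13, Trib3 was at 0, 0.291, 4.01, 8.24, 0.262, 0.52, 11.2 and 10.9 CPM, against 0.292 to 2.03 CPM over the 2mo labels. Asns was at 35.7, 28.2, 67.9, 73.6, 38.7, 38.7, 114 and 103 CPM, against 16.8 to 46.1. Sesn2 was at 21.4, 17.4, 53.2, 91.7, 12, 17.8, 86 and 53.9 CPM, against 16.6 to 35.8. In Chac1, Ddit3, Atf4, Trib3, Asns and Sesn2, the mice 2moNoH8, 2moNoH9, 2moNoH12 and 2moNoH13, and no others, exceeded the highest of the 22 hyperovulated labels. Atf5 did so in 3 of these mice, and Xbp1 in all 4 and in 2moNoH11. The share of the sum of squares between mice was 85.5% for Sesn2, 76.4% for Atf4, 70.2% for Trib3 and 66.4% for Asns, and in 4mo cumulus cells, also of 8 labels, 22.9%, 49.1%, 14.3% and 21%.

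The transcription factors among the members also had higher means without hyperovulation. Ddit3 was at 33.4 ± 13.9 CPM without and 16.7 ± 7.65 with hyperovulation, and 7 of 8 mice without it exceeded all 5 2mo labels. Atf4 was at 238 ± 68.4 against 181 ± 42.9 CPM, with mouse means from 163 to 325 and from 137 to 230.2 CPM. Atf5 was at 8.71 ± 5.68 against 4.68 ± 2.65 CPM, with 6 of 8 mice above all 2mo labels. Xbp1 was at 220.4 ± 72 against 136 ± 26 CPM, with 5 of 8 mice above.

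Ddit4 and Hspa5 did not follow this order of the mice. Ddit4 was lower without hyperovulation, at 15.8 ± 12.5 against 33.5 ± 17.6 CPM, and 6 of 8 mice lay under all 5 2mo labels. They included 2moNoH10 at 7.94 and 2moNoH11 at 12.3 CPM, mice in which Chac1 was at or near 0, while 2moNoH6 and 2moNoH7 were at 28.9 and 33.9 CPM. Hspa5 was at 1226 ± 235 CPM without and 1058 ± 161 CPM with hyperovulation. The mice above all hyperovulated labels in Hspa5 were 2moNoH6, 2moNoH8, 2moNoH10 and 2moNoH11, and 2moNoH9, at 908 CPM, was the lowest.

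**Figure D2:**
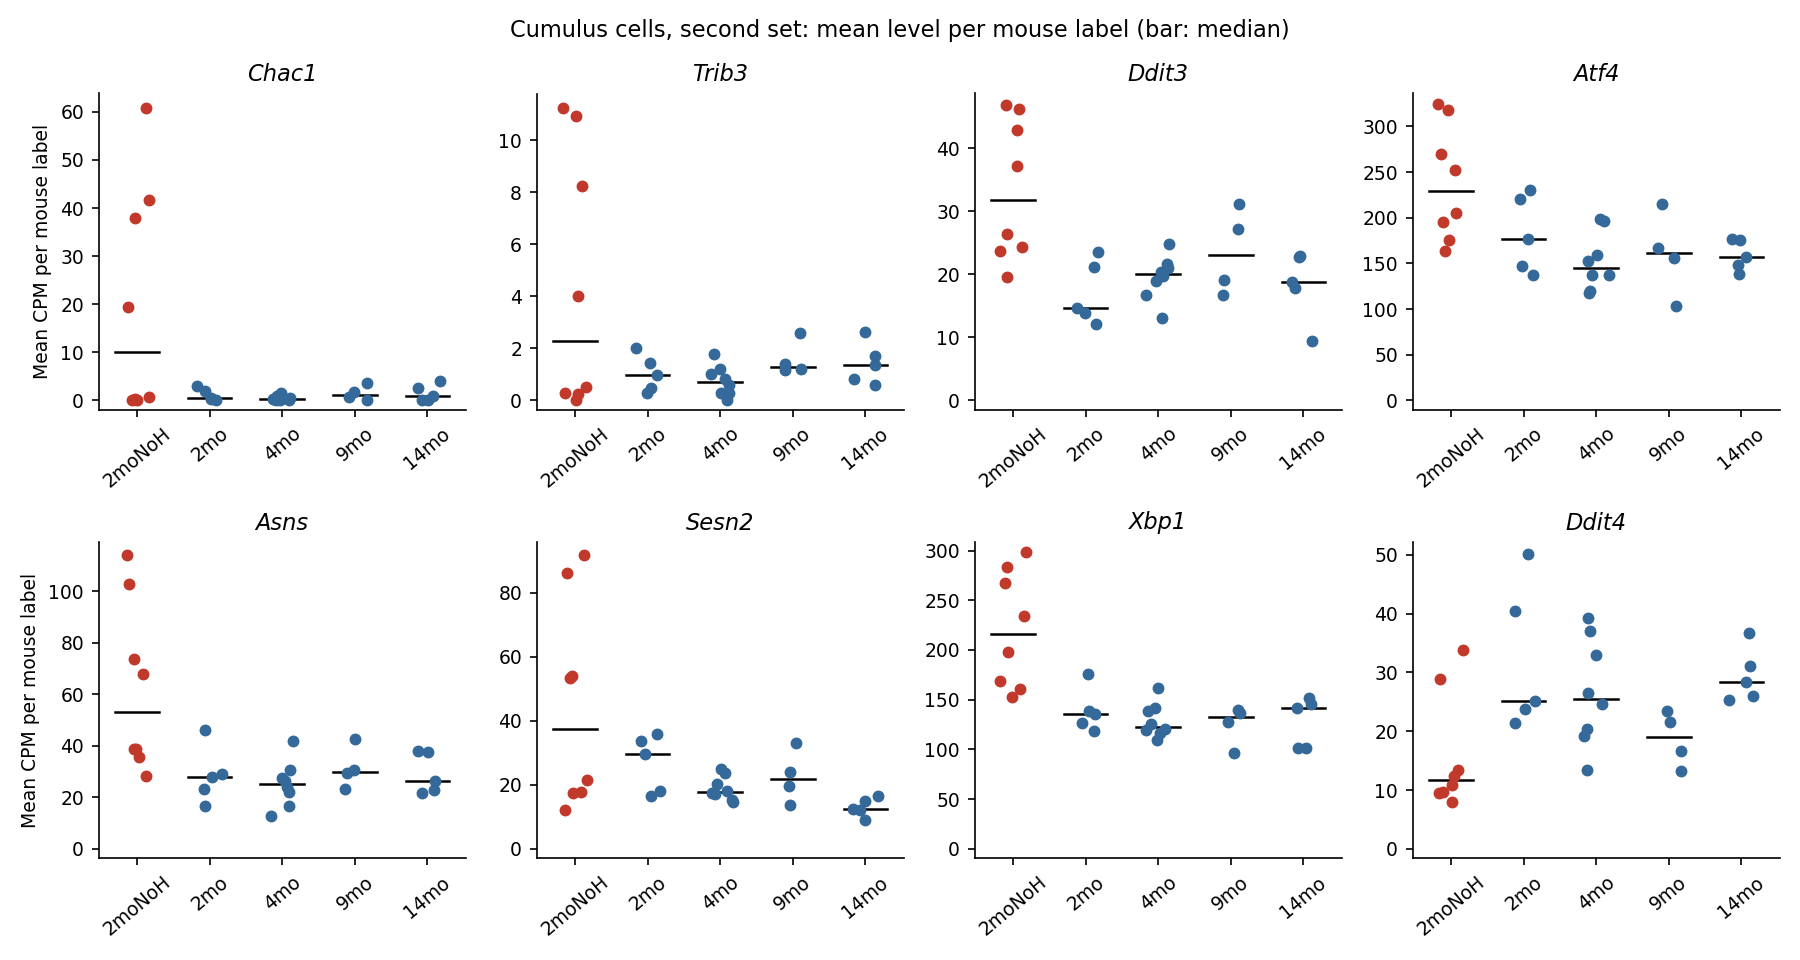
Mean level (CPM) of members in cumulus cells of the second set, by group, with a point for each mouse label and a line at the median. Without hyperovulation Chac1 and Trib3 fall into mice near 0 and mice above all hyperovulated labels, Ddit3, Atf4, Asns, Sesn2 and Xbp1 spread upward, and Ddit4 lies under all 2mo labels in 6 of 8 mice.

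The fitted log2 differences of 2mo minus 2moNoH were -4.22 for Chac1 (SE 0.69), -2.07 for Trib3 (0.55), -1.24 for Asns (0.23), -0.99 for Ddit3 (0.17) and -0.88 for Atf5 (0.25). They were -0.72 for Sesn2 (0.25), -0.72 for Xbp1 (0.11), -0.41 for Atf4 (0.11), -0.22 for Hspa5 (0.073) and 1.09 for Ddit4 (0.22). In that fit 13.2% of 24161 genes passed a false discovery rate of 5%, with a median log2 difference of -0.042 over all genes. All 10 members passed it (9 lower and 1 higher with hyperovulation, median -0.80), but they were chosen on this contrast and nothing is read from that count. With counts summed per mouse label 0 of 10 passed, beside 230 of 24161 genes. Without the label 2mo34 6 of 10 did, beside 1516 of 23645 genes.

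The labels of complexes in the second set begin with B1 or B2, and what these stand for is not given. Within B1 the difference of mean log2(CPM + 1), 2mo minus 2moNoH, was -2.07 for Chac1, -1.07 for Asns and -0.18 for Sesn2, and within B2 it was -1.93, -1.27 and -0.81. Chac1 exceeded all hyperovulated labels in 2 of the 4 B1 mice and in 2 of the 4 B2 mice.

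Marker genes were summed in the same libraries. Over the 8 mice without hyperovulation, in the order 2moNoH6 to 2moNoH13, the 10 cumulus cell markers summed to 12994, 15449.9, 10014, 10917, 13074, 11271, 9543 and 8041 CPM, and over the 2mo labels to 13979.7 to 17709 CPM. The lowest sums were those of 2moNoH8, 2moNoH9, 2moNoH12 and 2moNoH13, the mice high in Chac1. Counted in the same fit, in which 13.2% of all genes were called, 4 of these 10 markers were higher with hyperovulation and 0 lower. Of the other sets 1 of 4 tested oocyte markers was higher and 1 lower, 1 of 5 mural granulosa or luteal markers lower, 1 of 5 theca markers lower, 1 of 4 endothelial markers higher, and 0 of 1 tested blood and immune markers either. The 5 theca markers summed to 151 to 295 CPM without and 127 to 182 CPM with hyperovulation, with Insl3, Col1a1 and Col3a1 at a median of 0. The 5 mural granulosa or luteal markers summed to 62.2 to 264 and 118 to 305 CPM, with Ptgfr at a median of 0, and the 13 oocyte markers to 9.94 to 38.6 and 8.94 to 24.7 CPM, with 11 of the 13 at a median of 0. The 5 blood and immune markers summed to 2.29 to 14.5 and 1.74 to 12.8 CPM, with Ptprc, Adgre1, Hbb-bs and Hba-a1 at a median of 0, and the 4 endothelial markers to 2.14 to 19.4 and 3.91 to 14.4 CPM, with Tek and Kdr at a median of 0. In pools of cells, fewer cells of a type and less RNA per cell cannot be told apart, and the part of these differences in the members' values was not tested.

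Further genes of the pathway were counted from lists in the same fit, as a description. Over all genes 13.2% were called, with a median log2 difference of -0.042. Of 19 other ATF4 targets of amino acid synthesis and transport, 5 were lower and 2 higher with hyperovulation (median log2 difference -0.29). Slc7a1, an importer of cationic amino acids, was at 185 ± 97 CPM without and 83.1 ± 41.9 with hyperovulation, and Slc1a4, a carrier of neutral amino acids, at 31 ± 23.4 and 16.2 ± 7.26. Each exceeded all 2mo labels in 4 of 8 mice. Shmt2, a mitochondrial enzyme of serine and glycine metabolism, went the other way, at 67.6 ± 34.8 and 137 ± 42.1 CPM, as did the glycine carrier Slc6a9 at 32.6 ± 18.2 and 62.7 ± 24.9. Of 20 cytosolic aminoacyl-tRNA synthetases, 7 were lower with hyperovulation and 0 higher (median -0.29). Nars, which charges asparagine, was at 138 ± 61.6 and 86.1 ± 26.5 CPM, and Cars, which charges cysteine, at 98.6 ± 56.4 and 56.3 ± 42.4.

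Of 13 other genes linked to ATF4 and CHOP, 4 were lower and 1 higher (median -0.46). The stress-induced factor Atf3 was at 83 ± 69 CPM without and 38.6 ± 15.4 with hyperovulation, and 8 of 8 mice lay above all 2mo labels. Nupr1, a small stress-induced chromatin protein, was at 43.6 ± 31.3 and 15.9 ± 8.03 CPM, with 7 of 8 mice above. Of 30 ER sensors, chaperones and degradation factors, 14 were lower and 2 higher (median -0.21). Derl3, a factor of ER-associated degradation, was at 94.8 ± 50.4 and 44.5 ± 21.2 CPM, with 8 of 8 mice above, and Herpud1 of the same process at 165 ± 72.8 and 105 ± 31.7, with 4 of 8 above. Of 12 genes of eIF2 kinases, phosphatase subunits and eIF2B, 1 was lower and 1 higher, the latter the ER kinase PERK (Eif2ak3), at 52.7 ± 15.8 without and 68.5 ± 17.5 CPM with hyperovulation. Of 12 heat shock genes 2 were lower and 1 higher. With counts summed per mouse label, 1 of 19, 0 of 20, 4 of 13, 1 of 30, 0 of 12 and 0 of 12 genes of these lists passed, in the order given. The 1 of 19 was Shmt2, which was higher with hyperovulation, and the 1 of 30 was Derl3, which was lower. The 4 of 13 included Ero1l, higher with hyperovulation at 147 ± 31.4 against 97.5 ± 35.2 CPM, and Atf3 and Nupr1, which were lower. Over all genes 230 of 24161 passed in that fit.

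Among 10470 genes with a mean of at least 8 CPM, those whose mean log2(CPM + 1) per mouse label was most like that of Chac1 over the 30 cumulus labels of the second set were Sars (Pearson r 0.92), Iars (0.90), Rab12 (0.90), Hivep1 (0.87) and Atf6 (0.87). Sars and Iars charge serine and isoleucine onto tRNA, and Atf6 encodes an ER stress sensor. Without 2moNoH9 and 2moNoH12, the labels farthest from the median in Chac1, these values were 0.84, 0.83, 0.87, 0.80 and 0.76. Of the members, r with Chac1 was 0.92 for Trib3, 0.85 for Asns, 0.82 for Sesn2, 0.80 for Xbp1, 0.77 for Ddit3, 0.74 for Atf4 and 0.67 for Atf5, against 0.066 for Hspa5 and -0.51 for Ddit4. These correlations rest on 4 labels that stand apart, and the genes share libraries and depth, so they are given as a description. In the order 2moNoH6 to 2moNoH13, Sars was at 32.1, 27.7, 55.1, 69.1, 29, 29.4, 85 and 69.4 CPM.

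The oocytes of the same complexes did not show the order of mice seen in cumulus cells. Chac1 was at 3.1 ± 1.69 CPM in 2moNoH oocytes (n = 32) and 3.79 ± 1.97 in 2mo oocytes (n = 24), a log2 difference of 0.29 (SE 0.21, adjusted p = 0.815 from edgeR). In the order 2moNoH6 to 2moNoH13 its mean in oocytes was 3.19, 4.24, 1.31, 3.38, 3.17, 3.27, 2.97 and 3.3 CPM. With edgeR 0 of 10 members passed, against 0.0299% of 23373 genes, and 0 had an unadjusted p under 0.05. DESeq2 also called 0, with 7 members left without an adjusted p. The log2 differences lay between -0.64 (Xbp1) and 0.39 (Asns). For Asns, at 2.22 ± 1.27 and 2.91 ± 1.32 CPM, the exact two-sided permutation test of the mouse means gave an unadjusted p = 0.0404, among 130 such tests over all comparisons, and its adjusted p from edgeR was 0.71.

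The members differed strongly in level between the cell types. Per length, the order of mean levels in 2mo cumulus cells (RPKM, n = 24) was Hspa5 (250.1 ± 38.1), Atf4 (105 ± 24.9), Xbp1 (41.8 ± 8.0), Ddit4 (19.1 ± 10.0), Ddit3 (9.75 ± 4.47), Asns (9.75 ± 6.12), Sesn2 (7.84 ± 2.91), Atf5 (2.35 ± 1.33), Chac1 (0.583 ± 1.14) and Trib3 (0.448 ± 0.652). From Ddit4 to Sesn2, and for Chac1 and Trib3, neighbours in this order differed by less than their SD. In 2mo oocytes Atf4 led (74.5 ± 29.7 RPKM), ahead of Ddit4 (42.8 ± 9.4), Hspa5 (22.5 ± 5.18) and Ddit3 (7.18 ± 2.07). Chac1 was at 2.32 ± 1.2 RPKM there, Sesn2 at 1.82 ± 0.663, Asns at 1.06 ± 0.481, Trib3 at 0.397 ± 0.344, Atf5 at 0.387 ± 0.277 and Xbp1 at 0.148 ± 0.161. Chac1 and Sesn2, and Trib3, Atf5 and Xbp1, differed from their neighbours in this order by less than their SD.

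**Figure D3:**
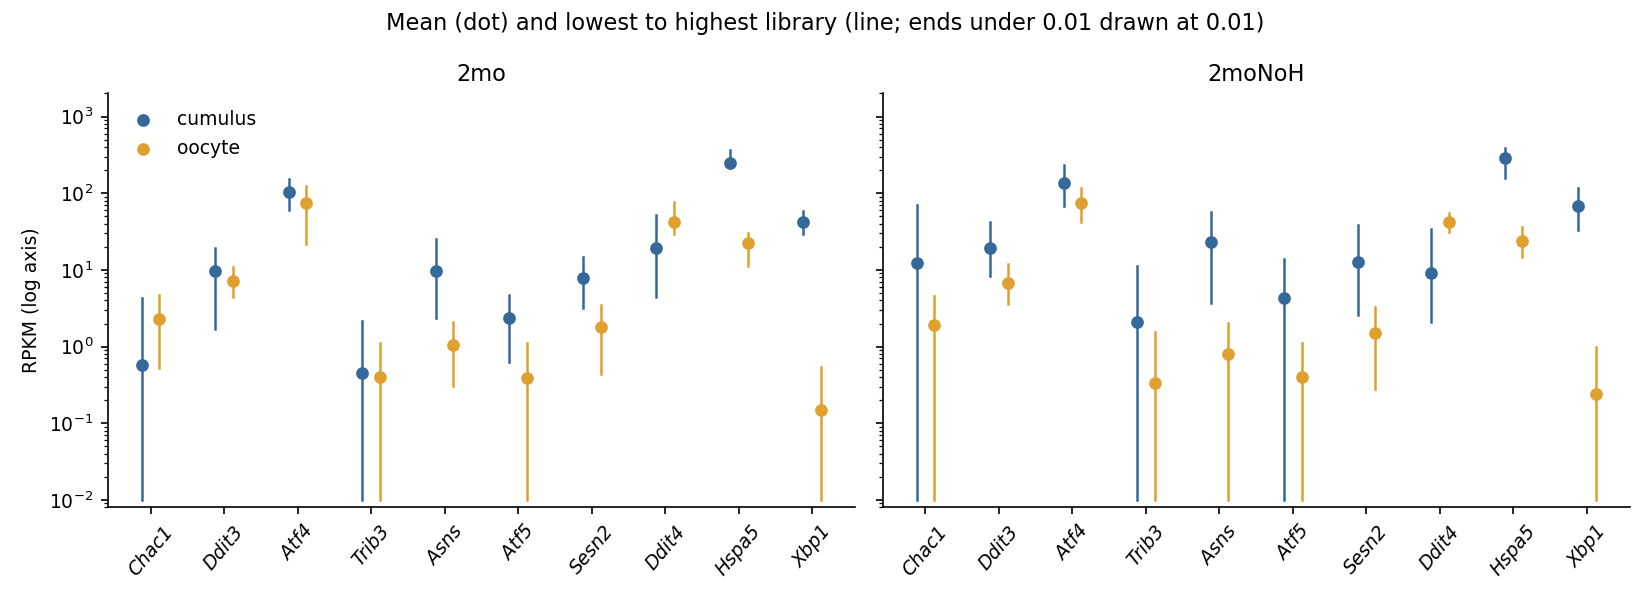
RPKM of the members in cumulus cells and oocytes with (2mo) and without (2moNoH) hyperovulation, on a log axis, with the mean as a dot and a line from the lowest to the highest library. Xbp1 and Hspa5 are far higher in cumulus cells in both groups, Ddit4 is higher in oocytes, and Chac1 has a higher mean in oocytes at 2mo and in cumulus cells in 2moNoH.

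In 2mo complexes the log2 difference of oocytes minus cumulus cells was -7.57 for Xbp1, -3.13 for Hspa5, -2.83 for Asns, -2.20 for Atf5 and -1.73 for Sesn2, with oocytes under cumulus cells in 5 of 5 mouse labels for each. It was 1.52 for Ddit4 and 2.19 for Chac1, with oocytes above cumulus cells in 5 of 5 labels for both. It was -0.11 for Ddit3, -0.16 for Atf4 and 0.14 for Trib3. In 2moNoH complexes it was -2.36 for Chac1, with oocytes above cumulus cells in 4 of 8 labels, -7.64 for Xbp1 and 2.62 for Ddit4. The fits called 88.4% of 26662 genes at 2mo, with 7 of 10 members, and 89% of 27953 in 2moNoH, with 10 of 10. The cumulus values of both groups were used to choose the members, so these differences are a description and nothing is read from the counts.

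With age in the second set, Sesn2, whose protein holds back mTORC1 when leucine is short, was the member that fell in cumulus cells. It ranged from 11.1 to 51.5 CPM at 2mo (median 28.7, n = 24), from 4.41 to 37.1 at 4mo (18, n = 40), from 3.36 to 46.9 at 9mo (23.4, n = 16) and from 1.14 to 25.3 at 14mo (13.4, n = 16). The log2 difference from 2mo was -0.97 at 14 months (SE 0.21, adjusted p = 0.00536 from edgeR), -0.53 at 4 months (SE 0.14, adjusted p = 0.0483) and -0.20 at 9 months (SE 0.21, adjusted p = 0.684). These comparisons share the 2mo libraries, which also entered the choice of members, so their p-values do not come from values free of that choice. Mouse means at 14 months (9.1 to 16.4 CPM) lay under all those at 2 months (16.6 to 35.8 CPM). The exact two-sided permutation test over labels gave an unadjusted p = 0.00794, the smallest it can give with 5 labels against 5, among 130 such tests over all comparisons. With counts summed per mouse label the adjusted p was 0.132 at 14 months and 0.666 at 4 months, where the exact p was 0.0583. Within B1 the difference of mean log2(CPM + 1) at 14 months was -1.33 and within B2 -0.51. The call at 14 months held in 13 of 14 alternatives, and that at 4 months in 6 of 17. At 14 months the 13 were all fits over libraries, which take the complexes of a mouse as replicates. The alternative that did not hold was the fit to counts summed per mouse label.

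The share of all genes called was 0.519% of 24847 at 4 months, 1.92% of 23024 at 9 months and 1.7% of 22862 at 14 months, and of the 10 members 1, 0 and 1 were called. At 9 months 2 members had an unadjusted p under 0.05 in edgeR, and DESeq2 called 0, with 2 members left without an adjusted p. Chac1 was at 0.527 ± 1.1 CPM at 4 months, 1.47 ± 2.85 at 9 months and 1.81 ± 3.65 at 14 months, and its log2 differences from 2mo (-0.72, 0.62 and 0.78) did not pass. Ddit4 at 9 months was at 18.7 ± 12.6 against 33.5 ± 17.6 CPM (log2 difference -0.76, adjusted p = 0.114 from edgeR), and Ddit3 at 23.5 ± 11.5 against 16.7 ± 7.65 CPM (0.54, adjusted p = 0.138). The lists gave 1 called gene at 4 months, 0 at 9 months and 5 at 14 months. At 14 months the glutamyl-prolyl-tRNA synthetase Eprs (0.34, adjusted p = 0.0106 from edgeR), the ER oxidoreductase Pdia4 (0.51, adjusted p = 0.0395) and Nupr1 (0.77, adjusted p = 0.0287) were higher, and the neutral amino acid carrier Slc38a2 (-0.28, adjusted p = 0.0282) and Atf3 (-0.66, adjusted p = 0.0496) lower than at 2mo on the log2 scale. With sums per label the adjusted p of these 5 genes was 0.631, 0.429, 0.443, 0.418 and 0.199.

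In oocytes of the second set 0 of 10 members passed at each age with edgeR, against 0.0126% of 23737 genes at 4 months, 0.16% of 22514 at 9 months and 1.14% of 22659 at 14 months. An unadjusted p under 0.05 was reached by 1, 0 and 2 members, and DESeq2 called 0 at each age, with 0, 3 and 3 members left without an adjusted p. The smallest adjusted p was that of Atf4 at 14 months, at 164 ± 36.3 against 129 ± 51.2 CPM (log2 difference 0.36, SE 0.15, adjusted p = 0.284). Within B1 the difference of Atf4 was 0.78 and within B2 0.034 on the log2(CPM + 1) scale. From the lists, Hsp90b1, the ER form of the HSP90 chaperone, was higher at 9 months (0.40, adjusted p = 0.00189 from edgeR, 0.0185 with sums per label) and at 14 months (0.35, adjusted p = 0.00205, 0.0511 with sums). The cytosolic chaperone Hspa8 was lower at 9 months (-0.28, adjusted p = 0.000412, 0.0129 with sums) and at 14 months (-0.39, adjusted p = 6e-07, 0.000556 with sums).

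In the first set, Chac1, Ddit3, Atf4, Sesn2 and Xbp1 were lower in cumulus cells of Old than of Young mice, and of these Atf4 and Chac1 also passed with counts summed per label. Of the same members only Sesn2 was called lower at 14mo against 2mo in the second set. Leaving out each label in turn there, the log2 difference ran from -0.20 to -0.039 for Atf4 and from 0.21 to 1.425 for Chac1. It ran from 0.13 to 0.37 for Ddit3 and from -0.078 to 0.11 for Xbp1. Chac1 ranged from 0 to 27.7 CPM in Young (median 2.31, n = 15), from 0 to 23 in Middle (median 0, n = 15) and from 0 to 0.832 in Old cumulus cells (median 0, n = 16). It summed to 106 counts over the Young libraries and to 2 over the Old ones, a ratio of 59.4 per counted read (95% exact interval 16 to 496, counting error only). Both Young labels held libraries at 0 beside libraries well above it, from 0 to 5.07 CPM in Young1 and from 0 to 27.7 in Young2, and the mouse accounted for 0.324% of the sum of squares of Chac1 there. Among Middle labels, Middle1 ranged from 1.62 to 23 CPM and the other 3 labels from 0 to 1.63 CPM.

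**Figure D4:**
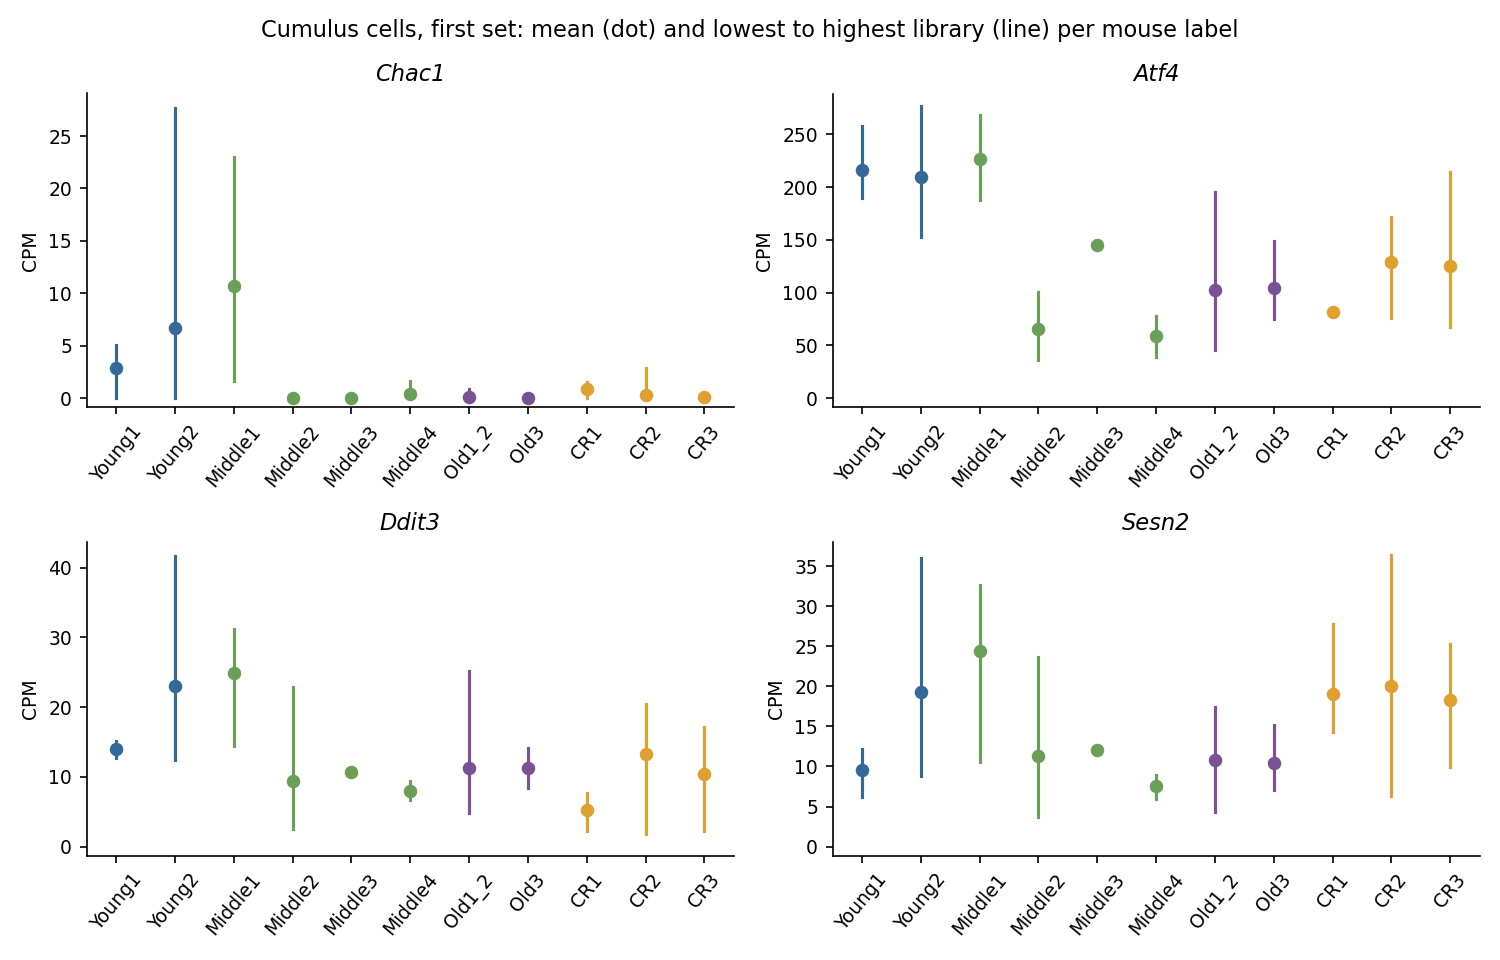
Level (CPM) of Chac1, Atf4, Ddit3 and Sesn2 in cumulus cells of the first set by mouse label, with the mean as a dot and a line from the lowest to the highest library. In Chac1, Atf4 and Ddit3 the mean of Middle1 lies above both Young labels and the Old labels lie under both, while in Sesn2 the Old labels lie between the Young labels.

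Of the 10 members, 5 were called lower and 0 higher in Old than in Young cumulus cells, against 3.96% of 23091 genes in both directions (median log2 difference -0.67 over members and 0.036 over all genes). Atf4 was at 103 ± 42.4 against 211 ± 33.2 CPM (log2 difference -1.07, SE 0.15, adjusted p = 2.27e-05 from edgeR, 0.0156 with counts summed per label). The fitted log2 difference of Chac1 was -4.94 (SE 0.84, adjusted p = 0.000335, 0.0345 with sums). Ddit3 was at 11.3 ± 5.3 against 21.2 ± 7.89 CPM (-0.94, adjusted p = 0.0029, 0.337 with sums). Sesn2 was at 10.7 ± 3.56 against 17.4 ± 8.29 CPM (-0.73, adjusted p = 0.0344, 0.592 with sums) and Xbp1 at 110.0 ± 11.9 against 141 ± 21.1 CPM (-0.39, adjusted p = 0.000572, 0.384 with sums). Asns (-0.61, adjusted p = 0.134), Trib3 (-0.75, adjusted p = 0.572), Hspa5 (-0.21, adjusted p = 0.105), Atf5 (-0.052, adjusted p = 0.956) and Ddit4 (0.10, adjusted p = 0.926) did not pass. The groups hold 2 labels each, so the exact test over labels cannot go below 0.333. Without Young2, the label of 12 of 15 Young libraries, 0 members passed, and over all genes 41 of 21423 did. The log2 difference was then 0.096 for Sesn2, -0.38 for Ddit3 and -1.15 for Atf4. Leaving out each label in turn, that of Atf4 ran from -1.15 to -1.04 and that of Chac1 from -5.90 to -4.65. Without Old1_2, the label of 11 of 16 Old libraries, Atf4 alone of the members passed, and over all genes 248 of 21257 did.

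In the same groups Ppp1r15a, the phosphatase subunit that reverses eIF2 phosphorylation, was at 69.3 ± 31.9 in Old against 165 ± 44.9 CPM in Young cumulus cells (-1.29, adjusted p = 0.000113 from edgeR, 0.0278 with sums). Atf3 was at 9.52 ± 8.43 against 33 ± 12.7 CPM (-1.81, adjusted p = 0.00124, 0.0156 with sums) and Herpud1 at 63.9 ± 16.3 against 129 ± 53.8 CPM (-1.04, adjusted p = 4.17e-05, 0.131 with sums). Of the lists, beside 3.96% of all genes, 2 of 12 eIF2 genes, 3 of 19 amino acid genes, 4 of 13 genes linked to ATF4 and CHOP, 1 of 20 synthetases, 4 of 31 ER genes and 1 of 12 heat shock genes were lower and 0 higher.

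Middle and Young cumulus cells differed in Atf4 (112 ± 78 against 211 ± 33.2 CPM, log2 difference -0.94, adjusted p = 0.0391 from edgeR) and Xbp1 (112 ± 18.4 against 141 ± 21.1 CPM, -0.38, adjusted p = 0.0187), so 2 of 10 members were called, against 1.46% of 22660 genes. With sums per label the adjusted p was 1 and 1. Of the lists, 1 of 12 eIF2 genes, 1 of 13 genes linked to ATF4 and CHOP and 3 of 12 heat shock genes were lower, and 0 were higher. By label, Atf4 was at 227 CPM in Middle1, 65.8 in Middle2, 146 in Middle3 and 59.1 in Middle4, and at 217 and 209.8 CPM in the Young labels. Without Middle1, 4 members were called lower, these being Chac1, Ddit3, Atf4 and Xbp1, beside 1145 of 22227 genes in both directions. Without Young2, Middle2 or Middle4 0 members were called, beside 10 of 20693, 34 of 21818 and 182 of 22035 genes. The cumulus markers summed to 16192 CPM in Middle1 and to 16201, 16291 and 16917 CPM in Middle2, Middle3 and Middle4. The mural granulosa or luteal markers summed to 1166 CPM in Middle4, the label with the lowest Atf4, and to 149, 192 and 228 CPM in Middle1, Middle2 and Middle3, and their part in the result was not tested. The Old and Middle comparisons share the Young libraries.

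In cumulus cells of CR mice, Chac1 ranged from 0 to 2.89 CPM (mean 0.252 ± 0.66, n = 25), against a mean of 2.96 ± 6.43 in Middle mice of the same age. The log2 difference was -3.20 (SE 0.72, adjusted p = 0.0058 from edgeR, 0.617 with sums per label). The summed counts, 48 over the Middle and 13 over the CR libraries, gave a ratio of 11.4 per counted read (95% exact interval 6.06 to 22.9, counting error only). It rested on Middle1, without which the log2 difference was 0.54. Hspa5 was at 1211 ± 161 against 1059 ± 123 CPM (0.22, adjusted p = 0.0465 from edgeR, 0.665 with sums). This call held in 4 of 11 alternatives. The label means of Hspa5 overlapped, from 1096 to 1376 CPM in CR and from 894 to 1206 CPM in Middle. Chac1 and Hspa5 were the 2 of 10 members called, against 3.6% of 24657 genes. Without Middle1 the members called were Atf4 and Sesn2 instead, both higher in CR, beside 648 of 24399 genes.

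Beside 3.6% of all genes, 7 of 31 ER genes were higher and 1 lower in CR cumulus cells, among them the disulfide isomerase P4hb (664 ± 84.2 against 448 ± 55.8 CPM, 0.59, adjusted p = 4e-08 from edgeR, 0.171 with sums) and the lectin chaperone Calr (0.44, adjusted p = 0.00716, 0.424 with sums). Of 12 heat shock genes 5 were higher and 0 lower, among them Hspa1a (2.10, adjusted p = 0.000192, 0.326 with sums) and Hsph1 (0.93, adjusted p = 1.61e-07, 0.201 with sums). Of the other lists, 3 of 19 amino acid genes and 1 of 20 synthetases were higher, and 0 were lower. CR cumulus libraries held 1568223 to 2501005 counts and Middle ones 848243 to 1269680, so depth and diet cannot be told apart, and the same holds for oocytes (2752043 to 4536690 against 1903858 to 2624876).

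**Figure D5:**
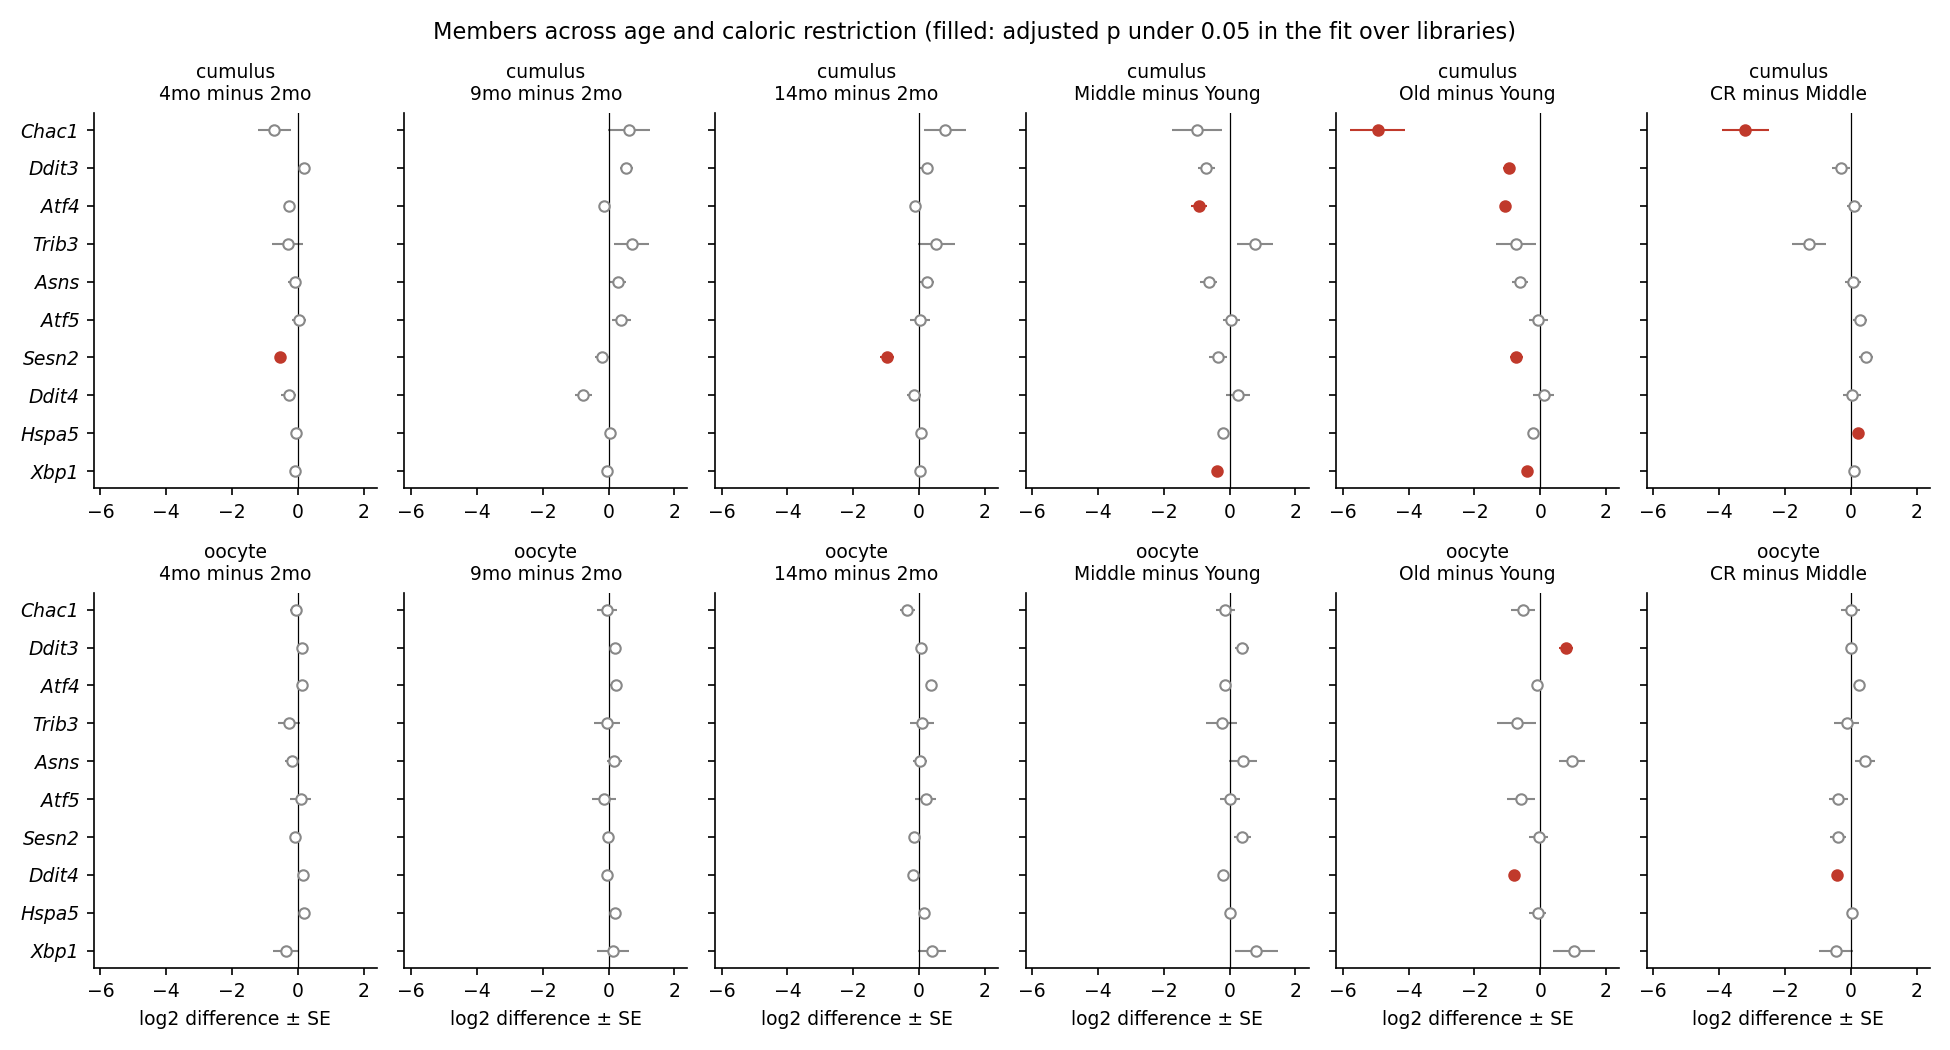
Log2 difference of each member in comparisons of age and caloric restriction, in cumulus cells and oocytes, from the fit over libraries, with its SE as a bar and the calls after adjustment over all genes filled. In cumulus cells 5 members are called lower in Old against Young, and Sesn2 is called lower in 4mo and 14mo against 2mo. In CR against Middle, Hspa5 is called higher, a call that held in 4 of 11 alternatives, and Chac1 lower, whose direction reverses without Middle1.

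In oocytes of the first set, Ddit4, which is induced by ATF4, hypoxia and glucocorticoids, was lower in Old and in CR mice. Its label means were 58.8 and 82 CPM in Old and 125 and 104 CPM in Young oocytes (log2 difference -0.79, SE 0.16, adjusted p = 0.0153 from edgeR, 0.553 with sums). They ran from 60.1 to 76.4 CPM in CR and from 75 to 111 CPM in Middle oocytes (-0.41, SE 0.12, adjusted p = 0.00902, 0.266 with sums, exact permutation p = 0.0857 over labels). Ddit3 was higher in Old than in Young oocytes, at 17.7 ± 8.08 against 10.1 ± 5.45 CPM (0.78, SE 0.21, adjusted p = 0.0263, 0.553 with sums). Without Young1, Young2 or Old1_2, neither passed between Old and Young oocytes, but over all genes only 6 of 22573, 0 of 21682 and 0 of 21271 did. Leaving out each label in turn, the log2 difference ran from 0.60 to 0.99 for Ddit3 and from -1.06 to -0.39 for Ddit4. In the second set neither was called between 14mo and 2mo oocytes. The log2 difference there, with each label left out in turn, ran from -0.026 to 0.098 for Ddit3 and from -0.23 to -0.093 for Ddit4.

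The share of genes called was 7.39% of 23100 for Old against Young oocytes, with 2 of 10 members, and 30% of 25276 for CR against Middle, with 1 of 10. Between Middle and Young oocytes it was 0% of 22958 with edgeR, and 0 of 10 members were called, also at an unadjusted p under 0.05 and with DESeq2, which left 7 members without an adjusted p. All genes had a median log2 difference of 0.11 in Old against Young oocytes. The difference of Ddit3 was larger in the same direction, and that of Ddit4 went the other way. Whether a shift over all genes had a part in these differences was not tested. Cumulus markers in oocytes, as a percentage of a typical cumulus library, ran from 0.57% to 8.45% over labels of the first set and from 0.494% to 1.14% over those of the second. Xbp1, which cumulus cells hold at far higher levels, reached 6.74 CPM in oocytes of Old1_2 and 6.73 CPM in those of Middle1, the labels with the most cumulus marker signal, and the part of cumulus RNA in this was not tested.

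In CR against Middle oocytes 30% of all genes were called, and the lists are read beside that share. Of 20 synthetases 9 were higher and 3 lower, among the higher Nars (0.60, adjusted p = 6.43e-09 from edgeR, 0.0161 with sums) and Iars (0.54, adjusted p = 2.17e-07, 0.0233 with sums). Of 12 eIF2 genes 3 were higher and 2 lower, of 12 genes linked to ATF4 and CHOP 2 were higher and 1 lower, and of 12 heat shock genes 4 were higher and 1 lower. Of 18 amino acid genes 2 were higher and 7 lower, and of 31 ER genes 7 were higher and 5 lower. Derl3 was at 37.2 ± 7.43 against 64.7 ± 8.84 CPM (-0.75, adjusted p = 5.1e-10, 0.00525 with sums). The heat shock factor gene Hsf1 was at 56.6 ± 7.37 against 106 ± 12.1 CPM (-0.87, adjusted p = 8.51e-15, 0.00537 with sums).

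The effect of CR differed between oocytes and cumulus cells for 2 of 10 members, against 12.7% of 30659 genes. For Chac1 the oocyte effect minus the cumulus effect was 3.12, SE 0.71, adjusted p = 0.000841 on the log2 scale of edgeR, and for Sesn2 -0.95, SE 0.33, adjusted p = 0.0413. With counts summed per label the adjusted p was 0.312 and 0.781. These fits did not pair the oocyte with the cumulus cells of its complex. The cumulus effect in Chac1 is the one that rested on Middle1. The effect of 14 months against 2mo differed between the cell types for 0 of 10 members with edgeR and with DESeq2, 2 of 10 at an unadjusted p under 0.05 and 3 without an adjusted p from DESeq2, against 0.745% of 28878 genes. The smallest adjusted p was that of Sesn2 (0.87, SE 0.27, adjusted p = 0.117). The 2mo cumulus libraries, which entered the choice of members, are part of these tests as well.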

How the data were processed

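RamDA-seq, a full-length total RNA method without strand or molecular identifiers, was applied to 401 libraries. Per the paper's methods and the submitters' processing notes, the authors trimmed reads with Fastq-mcf, aligned them to GRCm38 with HISAT2 2.0.5 and counted them on GENCODE vM15 with featureCounts 1.5.1, multi-mapped reads included. The deposited expected counts per gene carry fractions, with 36.8% (first set) and 35.1% (second) of nonzero values other than whole, although whole counts had been assumed when the tests were designed, so they were rounded for testing. The authors also deposited RPKM values, which they computed from these counts per gene length, and these were used here to compare genes of the second set.

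CPM was computed from the counts and the total of each library, without TMM. Fits used edgeR 4.0.16 (quasi-likelihood, TMM) in R 4.3.3 on genes detected in 5 or more of the libraries under comparison, with Benjamini-Hochberg adjustment over all genes tested. DESeq2 1.42.0, no filter, counts summed per mouse label, B1 or B2 as a covariate, all deposited libraries, leaving out each mouse label, and, for oocytes against cumulus cells, the complex as a replicate block were the alternatives. The oocyte and its cumulus cells pair because both come from the same complex. Only the fit with the complex as a replicate block used this pairing, and the tests of whether an effect differed between cell types did not. Exact two-sided permutation tests used mouse means of log2(CPM + 1). The edgeR script was tested on simulated counts drawn separately for each library, with no spread between mice. That test therefore cannot show how many false calls arise when several libraries share a mouse. One complex of the label Middle3 was left out, since its oocyte library had a correlation of 0.744 with the median oocyte and of 0.937 with the median cumulus library. Labels do not say whether other libraries are technical repeats, and no 2 libraries were identical. List genes were named by size of change among those called with a mean of at least 8 CPM, and genes like Chac1 by the 5 largest r. The members and lists were chosen with earlier results of these data known.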

Additional observations from a re-analysis of the deposited data

Results flagged for a closer look

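A mouse label lay far from the others of its group, by Dixon's test, in 8 of 120 groups of members and cell types, and chance flags about 1 in 20. In cumulus cells of Middle mice, Middle1 had a mean Chac1 level of 10.69 CPM against 0 to 0.409 in the other 3 labels, and a mean Ddit3 level of 24.86 CPM against 8.02 to 10.7. Middle3, which holds 1 complex here, had Ddit4 at 54.7 CPM in cumulus cells against 22.6 to 24.1, and Ddit3 at 31.57 CPM in the oocyte against 10.4 to 12.1. Among mice without hyperovulation, 2moNoH8 had the lowest oocyte Chac1, at 1.309 CPM against 2.97 to 4.24 in the other 7, and 2moNoH6 the highest oocyte Xbp1, at 2.457 CPM against 0.260 to 0.834. Hspa5 was at 1272 CPM in cumulus cells of 4mo27 against 917 to 1082 in the other 7 labels, and Trib3 at 2.602 CPM in those of 9mo21 against 1.15 to 1.39 in the other 3.

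The effect of CR differed between oocytes and cumulus cells by a log2 difference of 3.12 for Chac1 and of -0.9538 for Sesn2, each tested as an interaction term in edgeR (adjusted p = 0.000841 and 0.0413, and 0.312 and 0.781 with counts summed per mouse label). In the same edgeR fit 12.7% of 30659 genes were called. The cumulus effect in Chac1 rested on Middle1, without which the log2 difference of CR minus Middle was 0.54.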

How the results depend on the processing

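With counts summed per mouse label, the members called fell to 0 for hyperovulation, 4mo, 14mo, Middle and CR against Middle in cumulus cells, to 2 for Old against Young cumulus cells, and to 0 for Old and CR oocytes and for the CR effect between cell types. Over all genes these fits called 230 of 24161 for hyperovulation, 0 of 24847 for 4mo, 30 of 22862 for 14mo and 0 of 22660 for Middle. They called 0 of 24657 for CR and 81 of 23091 for Old cumulus cells. In oocytes they called 0 of 23100 for Old and 2151 of 25276 for CR, and for the CR effect 30 of 30659. Where 0 genes were called, the fall is not particular to the members. In hyperovulated against other cumulus cells the lists fell to 0 (eIF2), 1 (ATF4 targets), 4 (other genes linked to ATF4 and CHOP), 0 (tRNA synthetases), 1 (ER) and 0 (heat shock). The ATF4 target was Shmt2, which was higher with hyperovulation. No filter gave 0 for 4mo and 1 for CR cumulus cells, DESeq2 gave 0 for CR cumulus cells, where 2 members including Chac1 had no adjusted p, and all deposited libraries gave 2 for CR oocytes. Leaving out a mouse label gave 6 to 10 members for hyperovulation, 0 to 1 for 4mo, 0 to 4 for Middle, 0 to 5 for Old and 1 to 2 for CR in cumulus cells, and 0 to 3 for Old and 0 to 2 for CR oocytes. The genes called among all genes changed too. In Old against Young oocytes they went from 1707 with all labels to 0 without Young2 and 4141 without Old3. Sesn2 in Old against Young cumulus cells ran from -0.88 to 0.096 (without Young2) and Chac1 in CR against Middle from -3.95 to 0.54 (without Middle1). The causes were not tested. With the complex as a replicate block, 7 members at 2mo and 10 in 2moNoH were called between oocytes and cumulus cells, the numbers found without it, and Chac1 was at 2.26 and -1.66 on the log2 scale. Depth limits Chac1 and Trib3, whose counts are 0 in many cumulus libraries.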
